A study of Mus musculus with 8 samples.

Results

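A set of 30 germ-line and piRNA pathway genes were followed in TC1, a mouse embryonic stem cell line of wild-type genotype, in a study of cohesin during differentiation. The 30 genes share a known role, and the set was chosen on the day 0 and day 10 levels of these same libraries. A gene counted as detected when all 4 day 0 libraries reached 1 CPM (counts scaled to a library total of 1000000, with totals adjusted by the trimmed mean of M-values). By this rule 21 of the 30 were detected at day 0. Of all 32780 genes summed from the matched transcripts, 12501 (38.1%) met it. Total RNA came from 2 groups of 4 libraries, both wild-type, namely undifferentiated cells at day 0 and cells at day 10 of a differentiation protocol. No other genotype, allele or agent is named for either group, the agents of the protocol are not named in the labels, and all libraries come from this single line. Whether the 4 libraries of a group are separate cultures is not in the labels. The p-values therefore rest on a spread between libraries that may be technical.

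PIWI proteins are Argonaute relatives that bind short piRNAs and use them to find and silence transposons in germ cells. Tudor-domain proteins dock on methylated arginines of the PIWI proteins and gather them in cytoplasmic granules and at mitochondria, where piRNA precursors are cut and trimmed. In most somatic cells these genes are silent, with DNA methylation and polycomb-type repression at their promoters, whereas cultured mouse embryonic stem cells transcribe a number of them.

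Depth, as the total of estimated counts, ran from 11242568 to 15808039 in the day 0 libraries and from 13525255 to 17843651 in the day 10 libraries. The 8 pluripotency markers summed to 3350 to 3700 CPM at day 0 and 165 to 220 CPM at day 10, with Pou5f1 at 738 CPM against 2.72 CPM on average. Most of the day 10 sum was Klf4, which averaged 179 CPM at day 0 and 157 CPM at day 10 with overlapping groups. The 8 cardiac muscle markers summed to 51.4 to 63.1 CPM at day 0 and 353 to 556 CPM at day 10. Ryr2 made up most of the day 0 sum, with 46.1 to 57.0 CPM at day 0 and 107 to 129 CPM at day 10, while Myh6 averaged 1.17 CPM and 174 CPM. The labels carry no batch or date, and any batch tied to the day cannot be told apart from the day.

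Most of the detected genes were transcribed in the undifferentiated cells and close to absent at day 10. The mean level was lower at day 10 for 23 of the 30 genes and higher for 7. All 4 day 10 libraries lay below all 4 day 0 libraries for 21 genes and above them for 3, and the groups overlapped for 6. Over all 32780 genes, 18.7% were separate and lower and 22.3% separate and higher, and over the 15097 genes tested these shares were 37.2% and 40.8%. Only 5 genes reached 1 CPM in every day 10 library, namely Tdrd5, Tdrd7, Tdrkh, Tex15 and Brdt. In the fit across all genes 21 of the 30 passed the filter on low counts, and 17 of these were called lower, 2 higher and 2 neither. Of all 15097 genes tested, 39.4% were called lower and 42.7% higher at an adjusted p under 0.05. Because the day 10 against day 0 contrast was in view when the genes were chosen, their values are a description and carry no test. In bulk RNA, fewer cells that transcribe a gene and less RNA per cell cannot be told apart.

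**Figure D1:**
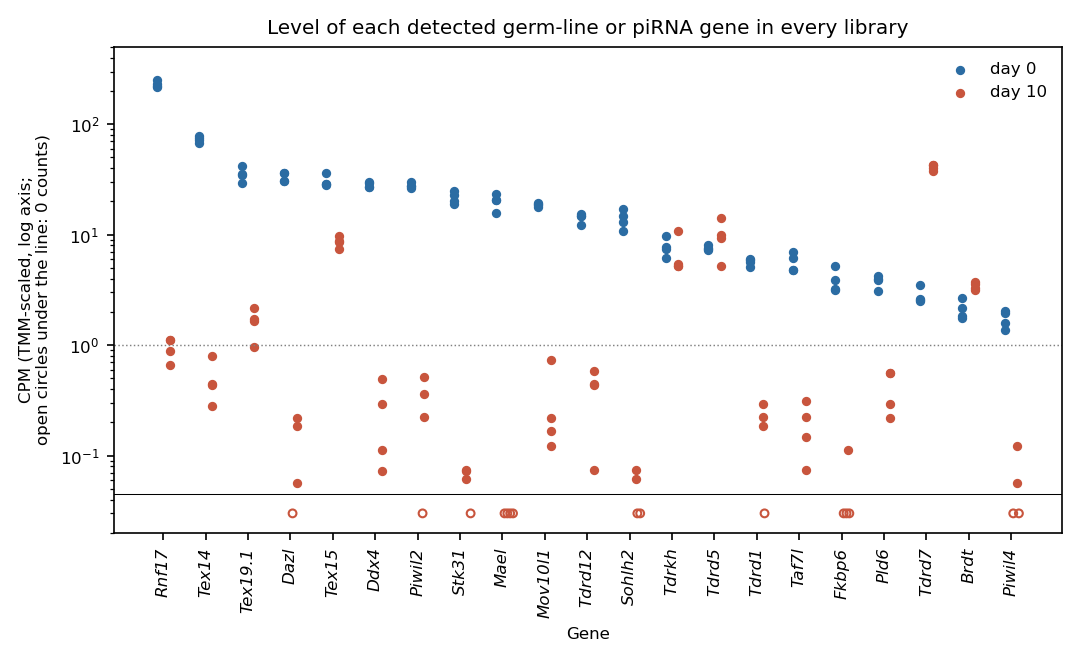
TMM-scaled CPM (log axis) of the 21 genes detected at day 0, 1 point per library, 4 at day 0 (blue) and 4 at day 10 (red). Open circles under the line mark libraries with 0 counts and the dotted line marks 1 CPM, and all 4 Mael libraries at day 10 lie under the line.

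At day 0 the spread between libraries of a detected gene was small, with a coefficient of variation of 4.03% to 25.1% and a median of 12.2%. The detection threshold fell in a sparse range. Just inside it stood Piwil4, at 1.38 to 2.02 CPM, and Brdt, at 1.77 to 2.67 CPM. Just outside it stood Slc25a31, which had 0.645 CPM in replicate 1 and 2.36 to 3.6 CPM in the other day 0 libraries, and Nanos3, at 0.461 to 1.04 CPM.

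Levels were compared between genes in TPM, which scales transcripts by length to a library total of 1000000. The 30 genes together reached 417 to 478 TPM at day 0 and 54.1 to 70.3 TPM at day 10. Rnf17 alone supplied 46.1% to 50.9% of the day 0 sum. Without it the sums were 218 to 239 TPM at day 0 and 52.8 to 68.1 TPM at day 10. The day 10 sum came largely from Tdrd7, which held 41.0% to 56.2% of it.

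Promoter sequence was examined because many of these genes moved together. RefSeq promoter windows on GRCm38.p6, running from 250 bases before to 50 bases after the start, were found for 26 of the 30 genes by symbol. Piwil2, Tdrd6, Rnf17 and Tex15 had no window in this table. MAX and its partners, MGA among them, bind the E-box CACGTG, and E2F6 binds E2F-type sites such as TCCCGC. The E-box reads alike on both strands, the E2F-type letters were searched on both, and neither motif holds the other. CACGTG was present for 12 of the 26 genes (46.2%), against 8.09% of all 27025 genes with a window. By window the share was 15 of 35 (42.9%) against 7.15% of 32851. Among windows with at least 20 CpG dinucleotides it was 11 of 18 (61.1%) against 11.6% of 8701. Fkbp6, Stk31 and Tdrd1 have overlapping windows that hold the same CACGTG sites, so shares by window count these sites more than once. No share by gene was taken at this CpG minimum. TCCCGC was present for 6 of the 26 genes (23.1%) against 22.0% of all genes, and for 17.1% of member windows against 20% of all windows. Among windows with at least 20 CpG dinucleotides it was in 5 of 18 (27.8%) against 49.4%. CACGTG lay in the windows of Mael, Stk31, Fkbp6, Pld6, Ddx4, Mov10l1, Tdrd1 and Taf7l, which were lower at day 10, and in that of Brdt, which was not. It also lay in the windows of Piwil1, Tdrd9 and Slc25a31, which were not detected at day 0. Dazl, Tdrd12, Sohlh2, Tex14, Tex19.1 and Piwil4 were lower at day 10 with no CACGTG in their windows, and Tdrd5, Tdrd7 and Tdrkh also had none. Asz1, Gtsf1, Nanos2, Nanos3 and Tex101, not detected at day 0, had none either. By gene, 9 of 18 detected and 3 of 8 undetected genes held it. Among the undetected genes, Piwil1 and Slc25a31 with it, and Gtsf1 and Nanos3 without it, had every day 10 library below every day 0 library. A match is a description of the letters in these windows.

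In all, 8 stretches of 120 bases outside GENCODE M21 exons follow, 5′ to 3′ on the gene's strand with CACGTG in capitals. RefSeq exons were not masked, and the Stk31 stretch runs past the RefSeq start of the other Stk31 window. The first 5 show the E-box in genes that were lower at day 10. Brdt shows it in a gene that was higher, while Dazl and Tdrd7 show windows without it in a gene that was lower and a gene that was higher. Mael is at chr1:166238848-166238967 (minus strand), Stk31 at chr6:49395484-49395603 (plus strand), Fkbp6 at chr5:135350045-135350164 (minus strand) and Taf7l at chrX:134476491-134476610 (minus strand). Tdrd1 is at chr19:56826089-56826208 (plus strand), Brdt at chr5:107331039-107331158 (plus strand), Dazl at chr17:50293637-50293756 (minus strand) and Tdrd7 at chr4:45972113-45972232 (plus strand).
Mael: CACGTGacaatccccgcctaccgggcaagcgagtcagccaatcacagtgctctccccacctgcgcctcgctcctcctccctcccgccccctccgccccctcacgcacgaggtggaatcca
Stk31: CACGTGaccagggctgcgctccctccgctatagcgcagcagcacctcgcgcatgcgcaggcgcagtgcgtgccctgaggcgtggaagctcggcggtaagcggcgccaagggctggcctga
Fkbp6: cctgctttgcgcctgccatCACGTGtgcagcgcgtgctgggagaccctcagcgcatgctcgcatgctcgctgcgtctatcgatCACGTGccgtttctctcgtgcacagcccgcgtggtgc
Taf7l: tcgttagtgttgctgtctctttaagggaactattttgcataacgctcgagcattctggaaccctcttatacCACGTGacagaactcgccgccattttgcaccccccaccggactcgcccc
Tdrd1: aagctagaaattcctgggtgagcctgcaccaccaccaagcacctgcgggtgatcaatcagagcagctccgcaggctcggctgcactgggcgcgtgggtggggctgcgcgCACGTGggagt
Brdt: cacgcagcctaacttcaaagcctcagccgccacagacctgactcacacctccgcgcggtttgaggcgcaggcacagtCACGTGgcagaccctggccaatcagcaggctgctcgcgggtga
Dazl: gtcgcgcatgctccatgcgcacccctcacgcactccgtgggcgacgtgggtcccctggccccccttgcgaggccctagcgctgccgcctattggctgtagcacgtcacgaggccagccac
Tdrd7: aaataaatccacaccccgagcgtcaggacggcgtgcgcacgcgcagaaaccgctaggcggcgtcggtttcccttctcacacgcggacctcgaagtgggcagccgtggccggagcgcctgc

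The PIWI proteins come first. Piwil2 (chromosome 14), which binds the first wave of piRNAs in fetal male germ cells, was the only PIWI gene with a sizeable level. It had 26.3, 29.9, 27.4 and 27.5 CPM in day 0 replicates 1 to 4, and 0.515, 0, 0.365 and 0.224 CPM in those of day 10. Every day 0 library was above every day 10 library, and the fitted log2 change was -6.68 ± 0.30 (SE). Piwil4 (chromosome 9), the nuclear PIWI protein that directs DNA methylation of transposons, stood far lower at day 0. Its libraries had 1.38, 1.6, 2.02 and 1.96 CPM at day 0 and 0, 0.123, 0 and 0.056 CPM at day 10. With 3 counts at day 10 in all, the ratio of day 10 to day 0 was 0.0278, with a 95% exact counting interval of 0.00564 to 0.0840. Piwil1 (chromosome 5), the PIWI protein of meiotic and later male germ cells, had only 24 counts at day 0 and 3 at day 10. Per length, Piwil2 averaged 11.3 ± 1.24 TPM (SD, n = 4), Piwil4 0.861 ± 0.124 TPM and Piwil1 0.25 ± 0.0776 TPM at day 0.

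Tudor genes ranged from nearly lost to higher at day 10. Rnf17 (chromosome 14), a tudor and RING-finger protein of germ cell granules, had the highest level of the 30 genes. It had 232, 250, 215 and 220 CPM at day 0 and 0.883, 1.11, 0.657 and 1.12 CPM at day 10. The groups were far apart, with 0.412% of the day 0 mean left and a log2 change of -7.88 ± 0.12. Its day 0 mean of 217 ± 20 TPM (SD, n = 4), over all its transcript types, ranked 734 among 21860 protein-coding genes. Transcripts annotated as coding held 41.2 TPM of this mean, and no rank was taken on these alone. Tdrd12 (chromosome 7), needed for secondary piRNA production, had 12.2, 14.8, 14.9 and 15.3 CPM at day 0 and 0.0736, 0.432, 0.584 and 0.448 CPM at day 10. The log2 change of Tdrd12 was -5.16 ± 0.28, and 2.69% of the day 0 mean was left. Tdrd1 (chromosome 19), the docking partner of PIWI proteins in germ granules, had 5.99, 5.64, 5.89 and 5.11 CPM at day 0 and 0.294, 0.185, 0 and 0.224 CPM at day 10. Its groups were separate as well, with a log2 change of -4.91 ± 0.39.

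Other tudor genes kept or gained transcripts. Tdrd7 (chromosome 4), a tudor protein of germ granules that is also needed in the eye lens, went the other way from most. It had 2.58, 2.51, 2.61 and 3.53 CPM at day 0 and 42.5, 37.5, 40.3 and 42.7 CPM at day 10. Every day 10 library was higher, with a log2 change of 3.84 ± 0.13, and 1.49 ± 0.427 TPM became 28.9 ± 5.27 TPM (SD, n = 4). Tdrd5 (chromosome 1), a factor of the germ granules of spermatids, had 7.28, 8.08, 7.49 and 7.59 CPM at day 0 and 5.23, 9.94, 14.2 and 9.25 CPM at day 10. The day 10 libraries lay on both sides of the day 0 range, and the log2 change was 0.34 ± 0.24. Tdrkh (chromosome 3), the mitochondrial partner of PIWI proteins during piRNA trimming, had 7.47, 7.80, 6.15 and 9.75 CPM at day 0. At day 10 it had 5.23, 10.9, 5.19 and 5.38 CPM, so that replicate 2 alone stood above the day 0 range and the other day 10 libraries below it. The log2 change was -0.22 ± 0.25, and -0.57 without day 10 replicate 2. The Tdrd5 value was 0.09 without day 10 replicate 3 and 0.52 without day 10 replicate 1. Tdrkh overlaps Oaz3 on the opposite strand, and reads of the pair were not separated by any stated use of strand. Tdrd5 likewise overlaps 4930518J20Rik on the opposite strand, and A430050A11Rik on the same strand. Tdrd6 and Tdrd9 were near 0 on both days. Tdrd6 had 24 counts at day 0 and 35 at day 10, and Tdrd9, a helicase with a tudor domain that overlaps Rd3l on the opposite strand, had 11 and 20.

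**Figure D2:**
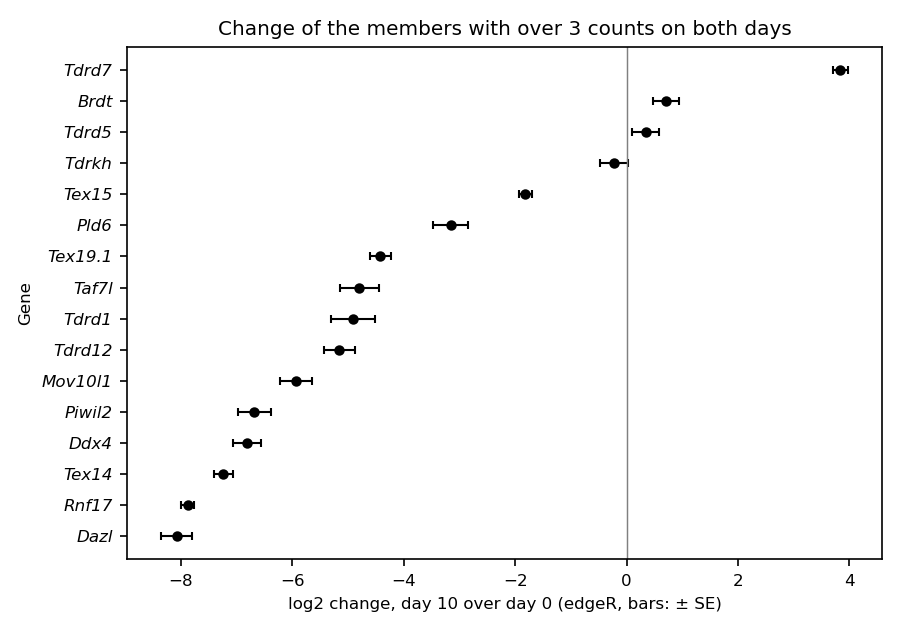
Log2 change of day 10 over day 0 with its SE (bars) for the fitted genes that had over 3 counts on both days, from edgeR. Tdrd7 is at 3.84 and Brdt at 0.71, Tdrd5 and Tdrkh lie near 0, and the rest run from -1.82 (Tex15) to -8.08 (Dazl).

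Other factors of the piRNA pathway were mostly detected at day 0, with Asz1 and Gtsf1 the exceptions. Mael (chromosome 1), a protein of the nuage granules needed for transposon silencing, had 20.6, 15.6, 20.8 and 23.2 CPM at day 0 and 0 counts in all 4 day 10 libraries. Taking 3 counts over the 4 libraries as the floor, Mael was at least 409-fold lower at day 10. Stk31 (chromosome 6), a germ cell kinase-like protein with a tudor domain, had 20.3, 22.7, 18.9 and 24.9 CPM at day 0 and 0.0736, 0.0617, 0.073 and 0 CPM at day 10. Its 3 day 10 counts gave a ratio of 0.00222 (95% exact counting interval 0.000458 to 0.00652). Both genes thus lost nearly all their transcripts in every day 10 library. Mov10l1 (chromosome 15), the helicase that feeds piRNA precursors into cutting, had 19.4, 18.7, 17.7 and 19.0 CPM at day 0, the narrowest spread of the detected genes. At day 10 it had 0.736, 0.123, 0.219 and 0.168 CPM. The log2 change was -5.94 ± 0.29. It was -6.75 without day 10 replicate 1, and -3.78 with a transcript length offset.

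Pld6 (chromosome 11), the mitochondrial nuclease that cuts piRNA precursors, had 3.96, 4.25, 3.12 and 3.86 CPM at day 0 and 0.294, 0.556, 0.219 and 0.560 CPM at day 10. The groups did not overlap, and the log2 change was -3.16 ± 0.32. Fkbp6 (chromosome 5), a co-chaperone of PIWI loading, had 3.23, 3.13, 3.87 and 5.24 CPM at day 0. At day 10 it had 2 counts, both in replicate 4 (0.112 CPM), which gave a ratio of 0.00829 (95% exact counting interval 0.000997 to 0.0303). Tex15 (chromosome 8), which acts with PIWI in silencing transposons and in meiotic recombination, was the least reduced of the genes that were lower. It had 28.9, 35.9, 28.5 and 28.1 CPM at day 0 and 7.43, 8.52, 8.69 and 9.81 CPM at day 10. All day 10 libraries were lower, 28.3% of the mean was left, and the log2 change was -1.82 ± 0.12. Asz1, a mitochondrial partner of the pathway, rested on 9 counts at day 0 and 43 at day 10, and all 4 of its day 10 libraries (0.556 to 0.883 CPM) were above its day 0 libraries (0 to 0.279 CPM). Gtsf1, a cofactor of PIWI cleavage, had 34 counts at day 0 and none at day 10, which with the same floor is at least 13.3-fold lower.

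Germ cell RNA-binding and fate genes were split. Dazl (chromosome 17), a translation regulator of germ cells, had 30.9, 36.3, 35.8 and 30.4 CPM at day 0 and 0, 0.185, 0.219 and 0.056 CPM at day 10. Only 0.345% of the day 0 mean was left, and the log2 change of -8.08 ± 0.27 rests on 7 counts at day 10. Ddx4 (chromosome 13), the Vasa helicase that marks germ cells, had 27.3, 29.5, 27.2 and 30 CPM at day 0 and 0.294, 0.494, 0.073 and 0.112 CPM at day 10. Its log2 change was -6.82 ± 0.25, with the groups apart, and -7.44 without day 10 replicate 2. Sohlh2 (chromosome 3), a transcription factor of early spermatogonia and oocytes, had 10.8, 13.0, 17.0 and 14.7 CPM at day 0 and 2 counts at day 10, a ratio of 0.00234 (95% exact counting interval 0.000282 to 0.00847). By contrast, Nanos3 and Nanos2, RNA-binding proteins that maintain early germ cells, had few counts. Nanos3 had 42 counts at day 0 and 9 at day 10, and Nanos2 had 0 and 1. Per length, Nanos3 averaged 3.35 ± 1.88 TPM at day 0 (SD, n = 4), above the 1.81 TPM of the detected gene Tdrd1. Of the Nanos3 level, 1.98 TPM came from the processed transcript Nanos3-203. Nanos3 overlaps the microRNA genes Mir181c and Mir181d on the same strand.

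Germ-line variants of general factors and the Tex genes followed. Tex14 (chromosome 11), which keeps the bridges between dividing germ cells open, had 67.3, 75.4, 72.3 and 77.8 CPM at day 0 and 0.442, 0.432, 0.803 and 0.280 CPM at day 10, a log2 change of -7.24 ± 0.17. Tex19.1 (chromosome 11), which restrains transposons in germ cells and placenta, had 35.6, 29.5, 34.4 and 42.1 CPM at day 0 and 0.957, 1.67, 2.19 and 1.74 CPM at day 10, a log2 change of -4.42 ± 0.19. Both were far lower in every day 10 library, and Tex19.1 has a paralogue, Tex19.2, with 5 counts at day 0 and 0 at day 10. Taf7l (chromosome X), the germ cell variant of a general transcription factor subunit, had 6.91, 6.13, 4.80 and 4.78 CPM at day 0 and 0.0736, 0.309, 0.146 and 0.224 CPM at day 10. Its log2 change was -4.80 ± 0.35. Brdt (chromosome 5), the testis bromodomain protein that reads acetylated histones, had 2.67, 2.16, 1.85 and 1.77 CPM at day 0 and 3.16, 3.58, 3.29 and 3.76 CPM at day 10. All day 10 libraries were above those of day 0, at a log2 change of 0.71 ± 0.23, which was 0.22 with a transcript length offset. Brdt overlaps the pseudogene Gm8152 on the opposite strand. Slc25a31, the germ cell ADP/ATP carrier, had 128 counts at day 0 and 8 at day 10, and Tex101, a sperm-cell surface protein, had 10 and none. Its day 0 libraries had 0.0922, 0.557, 0 and 0.0655 CPM, so most of its counts came from replicate 2 and the groups overlapped.

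The annotated transcript types behind these gene sums differed widely. In 14 of the 21 detected genes at least 90% of TPM came from coding transcripts in every day 0 library. In Rnf17, by contrast, only 16% to 21.5% did. The processed transcripts Rnf17-205 at 82.0 ± 10.4 TPM and Rnf17-203 at 68.4 ± 1.40 TPM (SD, n = 4) led it. The longest coding transcript, Rnf17-201 of 5264 bases, had 13.0 ± 1.90 TPM. Counted on coding transcripts alone, Rnf17 averaged 41.2 ± 6.24 TPM at day 0 and 0.115 ± 0.138 TPM at day 10. Its day 0 mean was still the highest of the 30 genes. Tex19.1 came next at 34.9 ± 4.13 TPM, and their SDs overlap. In Pld6 the coding share was 7.81% to 30.2%, and the processed transcript Pld6-201 had 3.42 ± 0.639 TPM. Kallisto shares reads among overlapping transcripts of a gene, so a split between transcripts is less certain than the gene sum.

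**Figure D3:**
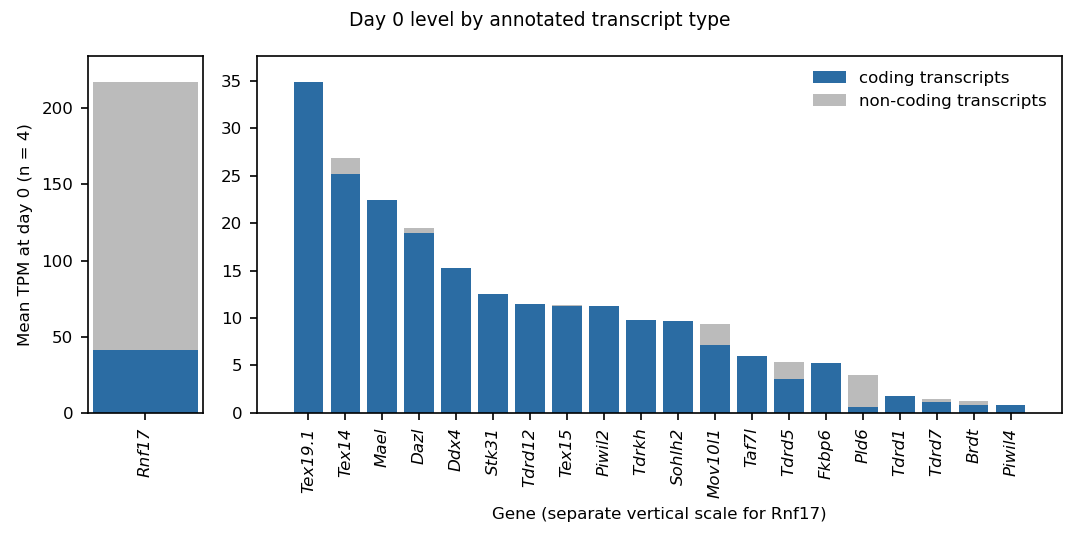
Mean TPM at day 0 (4 libraries) of the 21 detected genes, split into transcripts annotated as coding (blue) and all others (grey), with a separate vertical scale for Rnf17. Rnf17 had 41.2 TPM in coding and 176 TPM in other transcripts.

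Some genes were assigned to different transcripts on the 2 days. Ddx4-202 took all 1502 counts at day 0 and Ddx4-201 all 15 at day 10. Tdrd1-203 took 294 counts at day 0 and Tdrd1-201 the 11 counts at day 10. Tdrd12-201 had 382.2 estimated counts at day 0 and 0 at day 10, when Tdrd12-203 had 21.4. These low day 10 counts leave the day 10 transcript a description. For Tdrd7, Tdrd7-201 carried most counts on both days, with 122.4 and 2387.5.

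Genes near the pathway were read from 4 lists that are outside the 30 genes and were listed by known role. The lists were drawn up with earlier results of these data known, so their counts, medians and p-values are not an independent test. Over all 15097 genes tested, 39.4% were called lower and 42.7% higher. Of the 21 other piRNA and tudor genes, 15 were tested, and 11 fell, 1 rose and 3 did not pass, with a median log2 change of -1.37 against 0.06 over all 15097 genes tested. Morc1, which silences transposons in male germ cells, averaged 41.5 ± 2.16 CPM at day 0 and 0.357 ± 0.199 CPM at day 10 (SD, n = 4) and fell with a log2 change of -6.88 ± 0.21 (edgeR quasi-likelihood test, Benjamini-Hochberg adjusted p = 1.39e-12). Pnldc1, the trimmer of piRNA ends, fell by 4.33 ± 0.21 on the log2 scale (edgeR adjusted p = 1.73e-10). Prmt5, the arginine methyltransferase that marks PIWI proteins and has many other substrates, fell by 1.63 ± 0.06 (edgeR adjusted p = 8.09e-12). Tdrd3, a tudor protein of general transcription and RNA handling, rose by 1.04 ± 0.07 (edgeR adjusted p = 9.72e-09) and was the only gene of the list to rise.

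Of 31 further germ cell fate and RNA-binding genes, 25 were tested, and 15 fell, 9 rose and 1 did not pass. The shares over all genes tested were 39.4% lower and 42.7% higher. The list had a median log2 change of -0.59. On the TPM scale with either pseudocount, 12 of its genes fell and 11 rose. Dmrt1, a sex-determination and germ cell transcription factor, averaged 27.7 ± 4.35 CPM at day 0 and 0.101 ± 0.138 CPM at day 10 and fell with a log2 change of -8.02 ± 0.35 (edgeR adjusted p = 1.78e-10). Its 6 day 10 counts lay in replicates 3 and 4, and the value was -9.11 without day 10 replicate 3. Prdm14, a regulator of pluripotency and of primordial germ cells, fell by 4.95 ± 0.26 (edgeR adjusted p = 3.28e-10), and Meioc, a meiotic factor, by 3.84 ± 0.20 (edgeR adjusted p = 3.28e-10). Stra8, the retinoic acid-induced gatekeeper of meiosis, had 599 counts at day 0 and none at day 10, which is at least 234-fold lower, and was not among the 3 smallest p-values. Placed at that bound, it leaves the list median as given. Gfra1, a GDNF receptor of spermatogonial stem cells and other tissues, rose by 4.18 ± 0.15 (edgeR adjusted p = 9.71e-12). Prdm1, a germ cell and lineage regulator, rose by 2.36 ± 0.14 (edgeR adjusted p = 1.55e-09), and Rbm46, a germ cell RNA-binding protein, by 4.24 ± 0.35 (edgeR adjusted p = 4.71e-08).

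All 15 broadly expressed relatives of the 30 genes were tested, and 9 fell, 4 rose and 2 did not pass, with a median log2 change of -0.27. Beside this, 39.4% of all genes tested were called lower and 42.7% higher. On the TPM scale with either pseudocount, 6 of the relatives fell and 5 rose. Among the somatic Argonautes, Ago2 rose by 0.27 ± 0.06 (edgeR adjusted p = 0.000415), Ago3 by 0.58 ± 0.07 (edgeR adjusted p = 2.78e-06) and Ago4 by 1.49 ± 0.21 (edgeR adjusted p = 1.16e-05), whereas Ago1 changed by -0.12 and did not pass. With a transcript length offset, 1 of the 15 rose, and Ago3 (0.12, edgeR adjusted p = 0.570) and Ago4 (0.80, edgeR adjusted p = 0.102) no longer passed. Slc25a5, the general ADP/ATP carrier related to Slc25a31, fell by 2.10 ± 0.07 (edgeR adjusted p = 7.64e-12). Taf7, the general relative of Taf7l, fell by 1.21 ± 0.06 (edgeR adjusted p = 1.32e-10), and Fkbp5, a co-chaperone related to Fkbp6, by 2.12 ± 0.10 (edgeR adjusted p = 1.42e-10).

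Chromatin genes known to silence germ-line genes were all tested, and of the 26, 18 fell, 3 rose and 5 did not pass. Their median log2 change was -0.53, and the shares over all genes tested were 39.4% lower and 42.7% higher. L3mbtl2, a subunit of the polycomb complex that holds MGA and MAX, fell by 2.46 ± 0.07 (edgeR adjusted p = 1.07e-12). Hells, a remodeller needed for DNA methylation, fell by 2.26 ± 0.07 (edgeR adjusted p = 1.66e-12), and Trim28, a corepressor that recruits H3K9 methylation, by 1.46 ± 0.06 (edgeR adjusted p = 1.86e-11). Yaf2, a polycomb subunit, rose by 1.18 ± 0.12 (edgeR adjusted p = 3.24e-07), and E2f6, a DNA-binding subunit of the same complex, by 0.55 ± 0.09 (edgeR adjusted p = 5.39e-05). Atf7ip, the partner of the methyltransferase Setdb1, rose by 0.45 ± 0.07 (edgeR adjusted p = 2.10e-05). On the TPM scale 11 of the 26 fell and 9 rose, where the median of all genes was 0.43 against 0.06 on counts and 65.8% of all calls were higher against 52.0%.

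**Figure D4:**
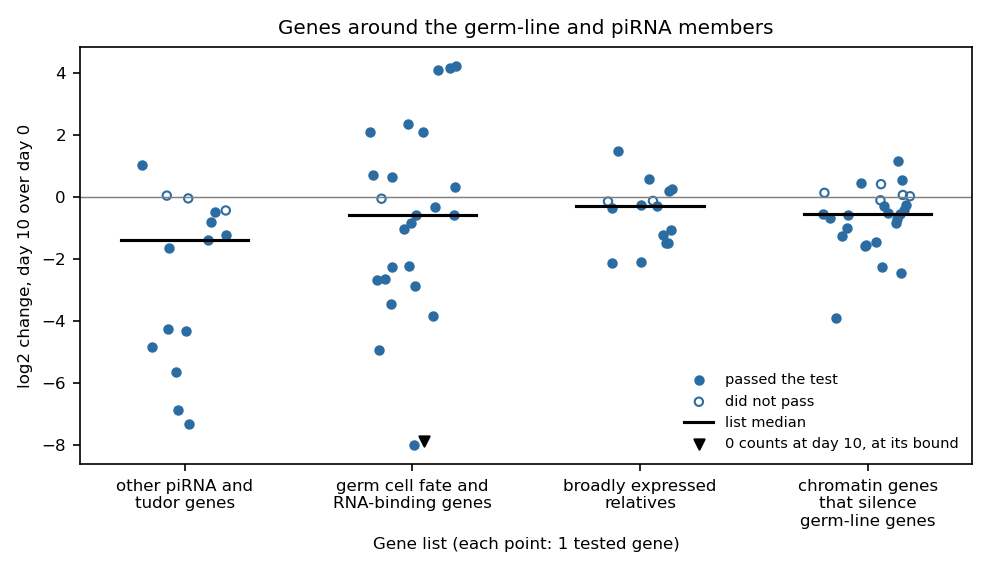
Log2 change of day 10 over day 0 for the tested genes of 4 lists outside the 30 genes, 1 point per gene, filled where the edgeR test passed and open where it did not, with list medians of -1.37, -0.59, -0.27 and -0.53 as lines. The black triangle is Stra8, which had 0 counts at day 10 and is drawn at its bound of 234-fold.

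Markers of other cells were measured beside these genes. The 8 primordial germ cell markers include Nanos3, Dazl and Ddx4. They summed to no less than 110 CPM in each day 0 library and to 29.0 to 35.3 CPM at day 10. At day 0 Dazl averaged 33.3 CPM, Ddx4 28.5 CPM, Tfap2c 26.6 CPM and Prdm14 17.8 CPM. Lower at day 0 were Dnd1 at 3.62 CPM, Prdm1 at 3.54 CPM, Dppa3 at 1.70 CPM and Nanos3 at 0.779 CPM. Dppa3 averaged 0.273 CPM at day 10. Of the 7 of these markers that were tested, 6 fell and 1, Prdm1, rose. Of all 15097 genes tested, 39.4% were called lower and 42.7% higher. Dazl and Ddx4, which fell, belong to the 30 genes and carry no test. The others that fell were Prdm14, Tfap2c, Dppa3 and Dnd1. Prdm1 (18.2 CPM) and Tfap2c (12.9 CPM) made up most of the day 10 sum. Of the 7 spermatid markers, 6 were at 0 at day 0, Prm1 and Tnp1 were at 0 on both days, and the summed level was at most 0.393 CPM. Of the 7 oocyte markers, 5 were at 0 at day 0, and the sum was 0.655 to 1.29 CPM at day 0 and 1.23 to 1.42 CPM at day 10. The 8 gonadal somatic markers, of which Inhbb and Sox9 are also transcribed elsewhere, summed to 99.1 to 114 CPM at day 0 and 78.2 to 90.5 CPM at day 10, with 100 CPM of Inhbb at day 0 and 71.4 CPM of Sox9 at day 10. The 8 markers of the 2-cell-like state summed to 8.17 to 12.3 CPM at day 0 and to 0 at day 10. Most of the day 0 sum came from the related genes Zscan4c, Zscan4d, Zscan4e and Zscan4f, at 2.06, 2.41, 2.13 and 2.54 CPM on average. At day 0 Tcstv1 and Tcstv3 had 0 counts, Zfp352 had 2 and Usp17lc had 18. The part of any marker-bearing cells in the levels of the 30 genes was not tested.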

How the data were processed

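Total RNA was taken with TRI Reagent and made into libraries with a SMART-Seq total RNA kit that depletes ribosomal RNA, per the labels' protocols. The authors deposited 1 table per library with transcript length, effective length, estimated counts and TPM. Quantification used kallisto version 1, per the submitters' processing notes, which also name DESeq2. For the transcript reference and build, the sources used here give nothing. The deposited estimated counts are not scaled, and the deposited TPM values are scaled for effective length by the authors. The deposited effective length, a further value per transcript, served only as an offset.

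Of 126126 transcripts, 117992 (93.6%) matched GENCODE M21 by identifier without version. The rest, 1.15% to 1.23% of counts, were left out. Counts were summed per gene, rounded and tested with edgeR 4.0.16 under R 4.3.3 (TMM scaling, filterByExpr, robust quasi-likelihood fit, Benjamini-Hochberg adjustment over 15097 genes, threshold 0.05). The common biological coefficient of variation was 12.5%. SE belongs to the fitted log2 change. A group at 0 counts is set to 3 counts for its fold, and ratios from 1 to 3 counts carry a 95% exact interval. Without molecular identifiers reads are not independent molecules, and these intervals and bounds hold counting error alone. The fit was tested on simulated data.

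The members and all lists were chosen with earlier results of these data known. All 30 genes are named, those detected at day 0 with every library. From each of the 4 lists, the called genes with the 3 smallest p-values per direction are named. Stra8, Ago1 and the single markers were named after their values were seen. Alternatives were DESeq2 1.42.0 and its size factors, upper quartile scaling, no filter, TPM with limma 3.58.1 (pseudocounts 0.5 and 0.1), a transcript length offset, coding transcripts only, a replicate block and each library left out.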

Additional observations from a re-analysis of the deposited data

Results flagged for a closer look

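Within a day, 7 of 85 groups of 4 libraries held 1 library far from the other 3 by Dixon's criterion, which chance meets in about 1 in 20 groups. At day 0 these were Tdrd7 in replicate 4 (3.53 CPM against 2.51 to 2.61), Tdrd12 in replicate 1 (12.2 CPM against 14.8 to 15.3) and Tex15 in replicate 2 (35.9 CPM against 28.1 to 28.9). At day 10 Tdrkh stood out in replicate 2 (10.9 CPM against 5.19 to 5.38) and Mov10l1 in replicate 1 (0.736 CPM against 0.123 to 0.219). Also at day 10, Stk31 in replicate 4 (0 CPM against 0.0617 to 0.0736) and Fkbp6 in replicate 4 (0.112 CPM against 0 in the others) stood apart by 1 or 2 counts.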

How the results depend on the processing

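The 17 alternatives gave 356 log2 values for the fitted members. No member called higher or lower changed sign, and 40 values moved by more than their spread, most of them on the TPM scale, where the pseudocount compresses low genes. Tdrd5, which was not called, was at -0.06 with a transcript length offset. Of 374 values for the named genes of the 4 lists, 372 kept direction and call. On TPM with either pseudocount, 10 other piRNA and tudor genes fell and 2 rose, and 11 chromatin genes fell and 9 rose. On the same scale 12 germ cell fate genes fell and 11 rose, and 6 broadly expressed relatives fell and 5 rose. With the length offset 1 broadly expressed relative rose. Leaving out 1 library gave 12 to 16 fallen germ cell fate genes, 11 fallen piRNA and tudor genes and 18 fallen chromatin genes. The fitted log2 value of Piwil4 was -5.83 without day 10 replicate 2 against -4.93, and that of Fkbp6 -8.75 without day 10 replicate 4 against -6.56, and both rest on 3 or fewer day 10 counts. Leaving out 1 day 10 library also moved Mov10l1 to -6.75, Ddx4 to -7.44 and Dmrt1 to -9.11. Detection at day 0 ran from 20 to 22 genes over the thresholds tried. At 1 TPM Piwil4 and Brdt dropped out and Nanos3 came in, and on coding transcripts alone Pld6 dropped out. Slc25a31 came in at 0.5 CPM and at a mean of 1 CPM. The replicate numbers are only numbers: same-numbered libraries correlated at -0.00143 to 0.0649 in their deviations, and 1 of the 4 day 0 libraries correlated best with its own number. The replicate block gave 5895 genes lower and 6403 higher, against 5950 and 6449 without it. Genes with few counts at day 10 are limited by depth, since 3 counts over the group is the floor.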
